A study of Mus musculus with 8 samples.

Results

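The mRNA of 10 marker genes of cardiac macrophages was followed in whole hearts of mice with kidney disease caused by dietary adenine and in hearts of control mice. The genes were chosen by symbol in the deposited read count table, where each of the 10 matched 1 of 27304 genes. Of these, 5 mark the resident macrophages of the heart (Lyve1, Timd4, Folr2, Cd163 and Mrc1) and 5 are general macrophage genes (Adgre1, Csf1r, C1qa, C1qb and C1qc). The mice were males of the inbred strain 129/Sv. The Adenine group is 4 heart libraries from mice fed 0.15% adenine for 13 weeks, which the labels give as chronic kidney disease. The Sham group is 4 heart libraries from mice on a control diet for the same 13 weeks, labelled healthy. The labels name the group Sham but record no operation. Nor do they state that each library is its own animal. The spread behind the p-values is therefore the one between these samples and may be technical.

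Resident macrophages settle in the heart before birth, renew there with little input from blood, and take up dying cells and debris. They are known for the hyaluronan receptor LYVE1, the phosphatidylserine receptor TIM-4 and the folate receptor FOLR2, whereas monocytes that enter an injured heart carry CCR2. Survival of both kinds depends on CSF1R, the receptor for the growth factors CSF1 and IL-34, and both can make the chains of C1q, the recognition molecule of the classical complement pathway.

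Library totals ran from 15626620 counts in Adenine 2 to 33886385 counts in Sham 2. All 10 genes were detected in every library, with 16 reads of Timd4 in Adenine 1 as the smallest count and 4291 reads of C1qb in Adenine 3 as the largest. Levels are given as CPM, counts scaled to library size with TMM factors. In bulk tissue fewer macrophages and less RNA per macrophage cannot be told apart. Mitochondrial transcripts took 34.2 to 41.9% of the counts in the Adenine and 31.0 to 35.6% in the Sham libraries. Adenine 3 stood apart in its myeloid genes. Log2 fold changes are therefore given with and without it, and levels and ratios with its value set apart from those of Adenine 1, 2 and 4.

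None of the 10 macrophage genes differed between the diets past the threshold, an adjusted p under 0.05 over all 20093 genes tested (edgeR quasi-likelihood test, Benjamini-Hochberg adjustment). The share of all tested genes called was 0.0398%. At an unadjusted p under 0.05 the count was also 0 of 10, where 17.5% of all genes passed. DESeq2 called 0 of the 9 genes to which it gave an adjusted p (1.43% of all genes), and limma-voom called 0 of 10 (0.0249% of all genes). For 0 of 10 were the 4 Adenine libraries all on one side of the 4 Sham libraries, as they were for 7.29% of all genes. The 10 log2 fold changes, Adenine minus Sham, had a median of 0.02, against 0.05 over all genes tested, with 5 above and 5 below 0. Behind this median lay a split among the Adenine hearts. In Adenine 3, Mrc1 and all 5 general macrophage genes were above every Sham library. In Adenine 1, 2 and 4 Mrc1 and Csf1r were below every Sham library, and so were Adgre1, C1qa and C1qc in 2 of these 3 libraries and C1qb in 1.

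**Figure D1:**
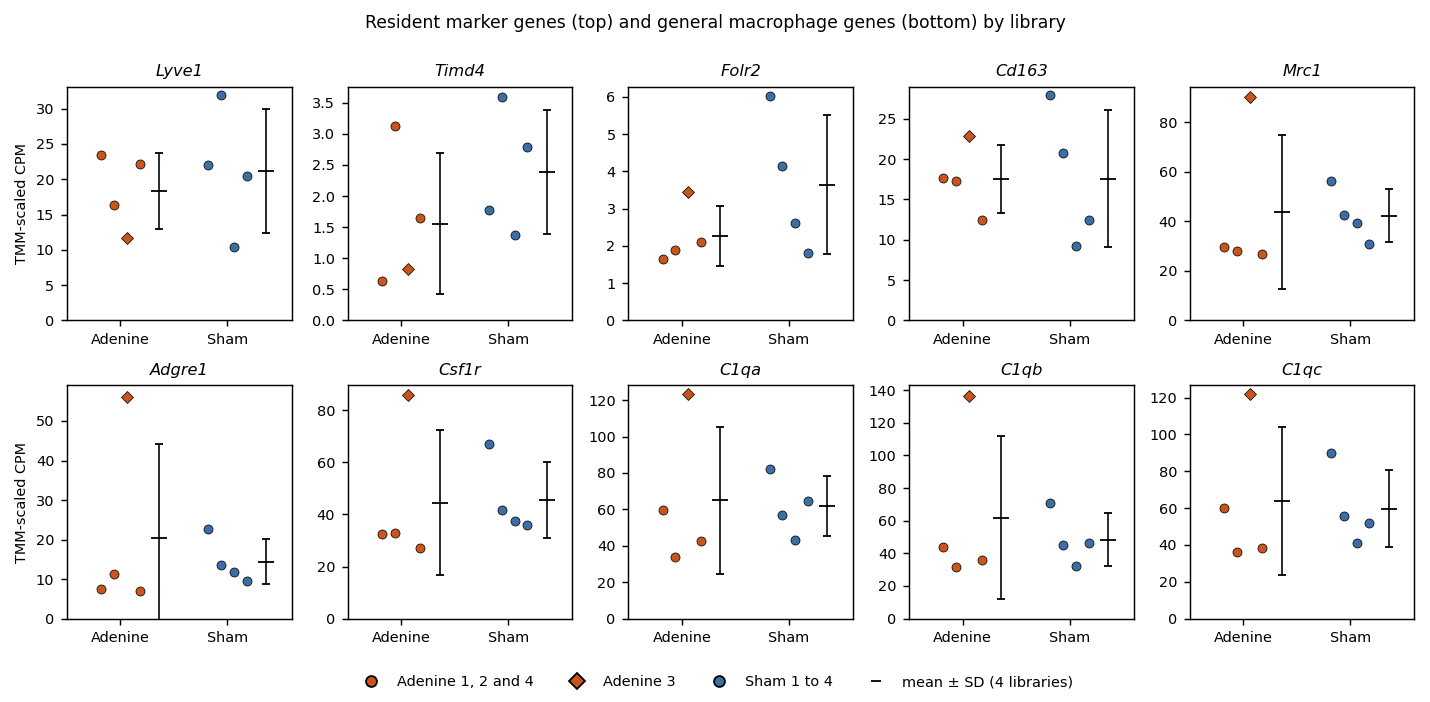
TMM-scaled CPM of each of the 10 genes in 4 Adenine and 4 Sham libraries, 1 point per library, with the mean and SD of each group beside the points; the lower bar of Adgre1 in the Adenine group runs past 0 and is cut there. Adenine 3, the diamond, is the highest of the 8 libraries for Mrc1, Adgre1, Csf1r, C1qa, C1qb and C1qc and lies below the Sham mean for Lyve1, Timd4 and Folr2.

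C1q is built from 3 chains, whose genes lie side by side on the minus strand of chromosome 4 in GRCm38: C1qb (ENSMUSG00000036905) from 136880129 to 136886187, C1qc (ENSMUSG00000036896) from 136889804 to 136893065 and C1qa (ENSMUSG00000036887) from 136895917 to 136898803. The bases before the start of C1qb and C1qc are printed because these neighbours were highest in the same library. Those of Mrc1 (ENSMUSG00000026712), on the plus strand of chromosome 2 from 14229392 to 14332057, are added as a gene on another chromosome that was highest there too. Each is the 250 bases before the RefSeq start, 5′ to 3′, from RefSeq's GRCm38.p6 annotation. Capitals mark GAGGAA, a core bound by the myeloid factor PU.1, and TGCTGA, a core bound by Maf factors, in either orientation (TTCCTC and TCAGCA on the other strand).
C1qb, chr4:136886201-136886450, minus strand: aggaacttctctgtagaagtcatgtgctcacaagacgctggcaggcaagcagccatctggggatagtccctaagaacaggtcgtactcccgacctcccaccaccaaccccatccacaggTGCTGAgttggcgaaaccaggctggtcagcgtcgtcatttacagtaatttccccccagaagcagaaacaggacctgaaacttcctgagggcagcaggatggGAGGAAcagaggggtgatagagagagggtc
C1qc, chr4:136892915-136893164, minus strand: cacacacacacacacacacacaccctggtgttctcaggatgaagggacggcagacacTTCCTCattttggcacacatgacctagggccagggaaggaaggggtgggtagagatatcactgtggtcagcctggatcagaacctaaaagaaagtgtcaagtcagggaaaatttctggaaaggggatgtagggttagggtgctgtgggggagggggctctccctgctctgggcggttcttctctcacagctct
Mrc1, chr2:14229164-14229413, plus strand: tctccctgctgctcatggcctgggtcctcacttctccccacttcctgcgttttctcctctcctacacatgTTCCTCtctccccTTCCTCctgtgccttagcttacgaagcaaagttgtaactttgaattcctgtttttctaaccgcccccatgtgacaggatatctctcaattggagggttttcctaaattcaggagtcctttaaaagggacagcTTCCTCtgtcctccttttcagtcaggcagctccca

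GAGGAA was found 30 to 25 bases before the RefSeq start of C1qb, 193 to 188 bases before that of C1qc and at 3 places before that of Mrc1. The RefSeq starts differ from the GENCODE gene starts given above. That of C1qc lies 151 bases inside the GENCODE gene, so that 151 of the 250 printed bases are in the gene and the motif is 42 to 37 bases before the GENCODE start. Of the Mrc1 window 22 bases are in the gene, and of the C1qb window 0. TGCTGA was found once, 131 to 126 bases before the RefSeq start of C1qb. In 32851 windows of the same length before RefSeq starts, 23.3% held GAGGAA, 16.1% held TGCTGA and 3.68% held both. Windows were at hand for 6 of the 10 genes. The window of Cd163 held neither motif, that of Timd4 held TGCTGA at 2 places, and each of the 2 windows of Folr2, 1 of them wholly inside the GENCODE gene, held it once. A match of 6 bases describes the letters only.

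C1qa was at 59.7, 34.0, 123 and 42.8 CPM in Adenine 1 to 4, against 82.4, 56.9, 43.3 and 64.7 CPM in Sham 1 to 4. C1qb was at 44.0, 31.4, 137 and 35.7 CPM in Adenine 1 to 4, against 70.6, 44.9, 32.0 and 46.3 CPM in Sham 1 to 4. C1qc was at 59.9, 35.95, 122 and 38.1 CPM in Adenine 1 to 4, against 89.6, 55.9, 41.2 and 51.7 CPM in Sham 1 to 4. The groups overlapped for all 3 chains, with Adenine 3 highest and Adenine 2 lowest of the 8 libraries. Their log2 fold changes were 0.07 (SE 0.34) for C1qa, 0.36 (SE 0.41) for C1qb and 0.10 (SE 0.35) for C1qc. Adjusted p-values were 0.909, 0.602 and 0.875 (edgeR). Without Adenine 3 the log2 fold changes were -0.45, -0.40 and -0.43, with adjusted p-values of 0.185, 0.229 and 0.238 (edgeR).

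Per length, as CPM per kilobase of exon (RPKM), the C1q genes had the highest levels of the 10 in both groups. C1qa had 62.4 ± 38.7 RPKM in Adenine and 59.4 ± 15.7 RPKM in Sham hearts, C1qb had 56.9 ± 46.0 RPKM in Adenine and 44.5 ± 14.8 RPKM in Sham hearts, and C1qc had 33.1 ± 20.7 RPKM in Adenine and 30.9 ± 10.8 RPKM in Sham hearts (SD, n = 4). C1qa was ahead of C1qb in the 4 Sham libraries and in Adenine 1, 2 and 4. In Adenine 3 the order was the other way, with 126 RPKM of C1qb and 118 RPKM of C1qa. As a share of the summed RPKM of the 3 chains, C1qb took 40.9% in Adenine 3, 31.4 to 35.98% in Adenine 1, 2 and 4, and 31.9 to 34.0% in the Sham libraries. C1qc took 20.5 to 24.1% in the Adenine and 20.4 to 24.4% in the Sham libraries.

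Below C1q, the order of mean levels in Sham hearts was Csf1r with 7.88 ± 2.53 RPKM, Lyve1 with 7.27 ± 3.01 RPKM, Mrc1 with 6.63 ± 1.67 RPKM and Adgre1 with 4.45 ± 1.77 RPKM. Then came Cd163 with 3.22 ± 1.55 RPKM, Folr2 with 2.36 ± 1.20 RPKM and Timd4 with 1.10 ± 0.461 RPKM (SD, n = 4). The ranges of neighbours in this order overlapped over the 4 Sham libraries for every pair but C1qc and Csf1r. Within each Sham library, C1qa was above C1qb, C1qb above C1qc and C1qc above Csf1r. Mrc1 was above Adgre1, and Adgre1 above Cd163, in each of them too. The other steps of the order did not hold in every Sham library. In Adenine hearts the same 7 genes had 7.72 ± 4.81 RPKM of Csf1r, 6.30 ± 1.85 RPKM of Lyve1, 6.85 ± 4.87 RPKM of Mrc1, 6.31 ± 7.35 RPKM of Adgre1, 3.21 ± 0.779 RPKM of Cd163, 1.47 ± 0.519 RPKM of Folr2 and 0.717 ± 0.519 RPKM of Timd4. The resident markers together took 6.85% of the summed RPKM of the 10 genes in Adenine 3, 11.2 to 15.04% in Adenine 1, 2 and 4, and 10.5 to 15.9% in the Sham libraries.

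Csf1r (ENSMUSG00000024621, chromosome 18, 61100598 to 61132149, plus strand) encodes the growth factor receptor on which macrophages depend. It was at 32.6, 32.8, 86.1 and 27.0 CPM in Adenine 1 to 4, against 67.1, 41.5, 37.6 and 35.8 CPM in Sham 1 to 4. Adenine 3 was above every Sham library and the other 3 Adenine libraries were below every one of them. The log2 fold change of -0.03 (SE 0.33, adjusted p = 0.968, edgeR) was -0.58 (SE 0.20, adjusted p = 0.101, edgeR) without Adenine 3. Exons of Csf1r share 873 bases with Hmgxb3, a gene of the minus strand, and no source states a strand setting for the counts. Hmgxb3 was at 10.2 to 17.7 CPM in the Adenine and 13.6 to 14.5 CPM in the Sham libraries, with its lowest value in Adenine 3.

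Adgre1 (ENSMUSG00000004730, chromosome 17, 57358691 to 57483527, plus strand) encodes F4/80, the adhesion receptor by which mouse macrophages are commonly identified. It was at 7.52, 11.3, 56.0 and 6.92 CPM in Adenine 1 to 4, against 22.7, 13.5, 11.9 and 9.59 CPM in Sham 1 to 4. The level in Adenine 3 was 2.47 times the highest Sham level, more than for any other of the 10 genes, and Adenine 1 and 4 were below the lowest Sham level. The log2 fold change was 0.51 (SE 0.56, adjusted p = 0.593, edgeR) with all libraries and -0.78 (SE 0.26, adjusted p = 0.0919, edgeR) without Adenine 3.

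Mrc1 encodes the mannose receptor CD206, which clears glycoproteins and is also made by lymphatic endothelium. It was at 29.6, 27.9, 90.2 and 26.8 CPM in Adenine 1 to 4, against 56.4, 42.5, 39.4 and 30.7 CPM in Sham 1 to 4. Of the 5 resident markers it was the only one above the Sham range in Adenine 3, and its other 3 Adenine libraries were all below the Sham range. The log2 fold change was 0.05 (SE 0.35, adjusted p = 0.942, edgeR), and -0.60 (SE 0.18, adjusted p = 0.082, edgeR) without Adenine 3.

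Folr2 (ENSMUSG00000032725, chromosome 7, 101839988 to 101857194, minus strand) encodes folate receptor beta. It was at 1.64, 1.90, 3.44 and 2.09 CPM in Adenine 1 to 4, against 6.03, 4.13, 2.61 and 1.80 CPM in Sham 1 to 4. All 4 Adenine libraries were below the Sham mean of 3.64 CPM, and the groups overlapped. Of the 10 genes it had the lowest p, with a log2 fold change of -0.68 (SE 0.38, adjusted p = 0.338, edgeR), or -0.97 (SE 0.37, adjusted p = 0.12, edgeR) without Adenine 3 and -0.33 without Sham 1. Exons of Folr2 share 975 bases with Gm10602, an antisense gene, so reads of the pair could not be told apart if the counting ignored strand.

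Cd163 (ENSMUSG00000008845, chromosome 6, 124304656 to 124330527, plus strand) encodes the scavenger receptor for haemoglobin bound to haptoglobin. It was at 17.6, 17.3, 22.8 and 12.4 CPM in Adenine 1 to 4, against 27.9, 20.8, 9.20 and 12.4 CPM in Sham 1 to 4. All 4 Adenine libraries lay within the Sham range. Its log2 fold change was -0.005 (SE 0.30, adjusted p = 0.993, edgeR), and -0.17 without Adenine 3.

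Lyve1 (ENSMUSG00000030787, chromosome 7, 110850607 to 110863239, minus strand) encodes a hyaluronan receptor of resident macrophages and of lymphatic endothelium. It was at 23.4, 16.3, 11.7 and 22.1 CPM in Adenine 1 to 4, against 22.0, 31.9, 10.5 and 20.4 CPM in Sham 1 to 4. All Adenine libraries lay within the Sham range, Adenine 3 being the lowest of them. The log2 fold change was -0.21 (SE 0.29, adjusted p = 0.679, edgeR), and -0.05 without Adenine 3. Since lymphatic endothelium makes Lyve1 and Mrc1 too, 6 of its markers (Prox1, Flt4, Pdpn, Ccl21a, Mmrn1 and Reln) were summed. edgeR called 0 of 6, with Ccl21a (-1.05, adjusted p = 0.214) and Mmrn1 (-0.95, adjusted p = 0.264) having the lowest p. Without Adenine 3 their log2 fold changes were -0.89 and -0.79. Reln, the 1 gene of the 6 above 0, was at 0.25, and at 0.45 without Adenine 3 (edgeR). DESeq2 called 1 of 6, Ccl21a, lower (adjusted p = 0.0342, and 0.027 without Adenine 3), where it called 0.797% of all genes lower. The summed level was 81.4 CPM in Adenine 3, 94.3 to 117 CPM in Adenine 1, 2 and 4, and 109 to 200.3 CPM in the Sham libraries. Most of the Sham sum was Prox1, at 27.6 to 63.5 CPM, and Ccl21a, at 42.4 to 77.9 CPM. The sum was highest in Sham 2 and lowest in Adenine 3. Sham 2 was also the highest library of Lyve1, while Mrc1 was highest in Adenine 3. The part of lymphatic RNA in these levels was not tested.

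Timd4 (ENSMUSG00000055546, chromosome 11, 46810800 to 46844332, plus strand) encodes TIM-4, which binds phosphatidylserine on dying cells. It was at 0.640, 3.12, 0.828 and 1.64 CPM in Adenine 1 to 4, against 1.77, 3.59, 1.38 and 2.79 CPM in Sham 1 to 4. Adenine 1 and 3 were below the Sham range and the groups overlapped. The underlying 16, 51, 26 and 44 reads in the Adenine and 55, 106, 37 and 73 reads in the Sham libraries leave a wide counting error. The log2 fold change was -0.64 (SE 0.48, adjusted p = 0.439, edgeR), -0.45 without Adenine 3 and -1.20 without Adenine 2.

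**Figure D2:**
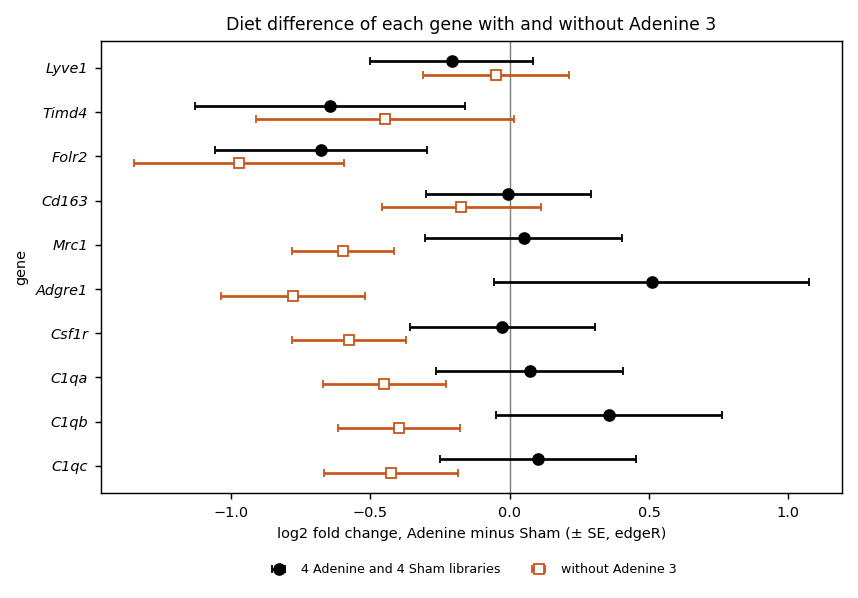
Log2 fold change, Adenine minus Sham, of each of the 10 genes with its SE from edgeR, over 8 libraries (black circles) and without Adenine 3 (open squares). Over 8 libraries 5 genes lie on each side of 0; without Adenine 3 all 10 are below 0, from -0.97 for Folr2 to -0.05 for Lyve1, with 0 called.

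Leaving out Adenine 3, a choice made after its values were seen, gave a negative log2 fold change for 10 of 10 genes with a median of -0.45. Adenine 3 was the highest of the 8 libraries for 6 of the 10 genes, so a fall of their fold changes was fixed by that choice. Sham 1, the highest Sham library for Folr2, Mrc1, Adgre1 and Csf1r, was kept. The shares over all genes come from genes not chosen this way and are given for scale only. Over all 20824 genes then tested, 46.4% were negative and the median was 0.06. edgeR still called 0 of 10, where it called 0.322% of all genes. At an unadjusted p under 0.05 it had 4 of 10 genes lower, Folr2, Mrc1, Adgre1 and Csf1r, where 9.9% of all genes were lower at that p. DESeq2 without Adenine 3 called these 4 genes lower, where it called 3.63% of all genes lower. The log2 fold changes there were -0.71 for Mrc1 (adjusted p = 0.03), -0.90 for Adgre1 (adjusted p = 0.0301), -0.69 for Csf1r (adjusted p = 0.0452) and -1.09 for Folr2 (adjusted p = 0.0495). limma-voom without it called 0 of 10 (0.154% of all genes). Counted by overlap, 2 of 10 genes, Mrc1 and Csf1r, had the 3 remaining Adenine libraries below all 4 Sham libraries, as had 8.31% of all genes.

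Within a library, a ratio of genes does not depend on the scaling between libraries. The log2 ratio of each of the other 9 genes to Csf1r was therefore compared between the diets, a measure chosen after the levels were seen. In none did the groups separate (exact two-sided permutation over 70 assignments, p = 0.2 to 1, and 0.874 to 1 after Benjamini-Hochberg adjustment over the 9 ratios). The smallest p this design allows is 0.0286. Mrc1 kept closest to Csf1r, with a log2 ratio of -0.08 ± 0.13 in Adenine and -0.09 ± 0.17 in Sham hearts (SD, n = 4, exact permutation p = 0.857). In Adenine 3 the ratio was -2.88 for Lyve1, below the -1.01 to -0.29 of Adenine 1, 2 and 4 and the -1.84 to -0.38 of the Sham libraries. For Timd4 it was -6.70 in Adenine 3, below the -5.67 to -3.39 of Adenine 1, 2 and 4 and the -5.24 to -3.53 of the Sham libraries. Folr2 was lowest there too, with -4.65, against -4.31 to -3.69 in Adenine 1, 2 and 4 and -4.32 to -3.33 in the Sham libraries. Adgre1 was highest there, with -0.62, against -2.12 to -1.54 in Adenine 1, 2 and 4 and -1.90 to -1.56 in the Sham libraries.

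**Figure D3:**
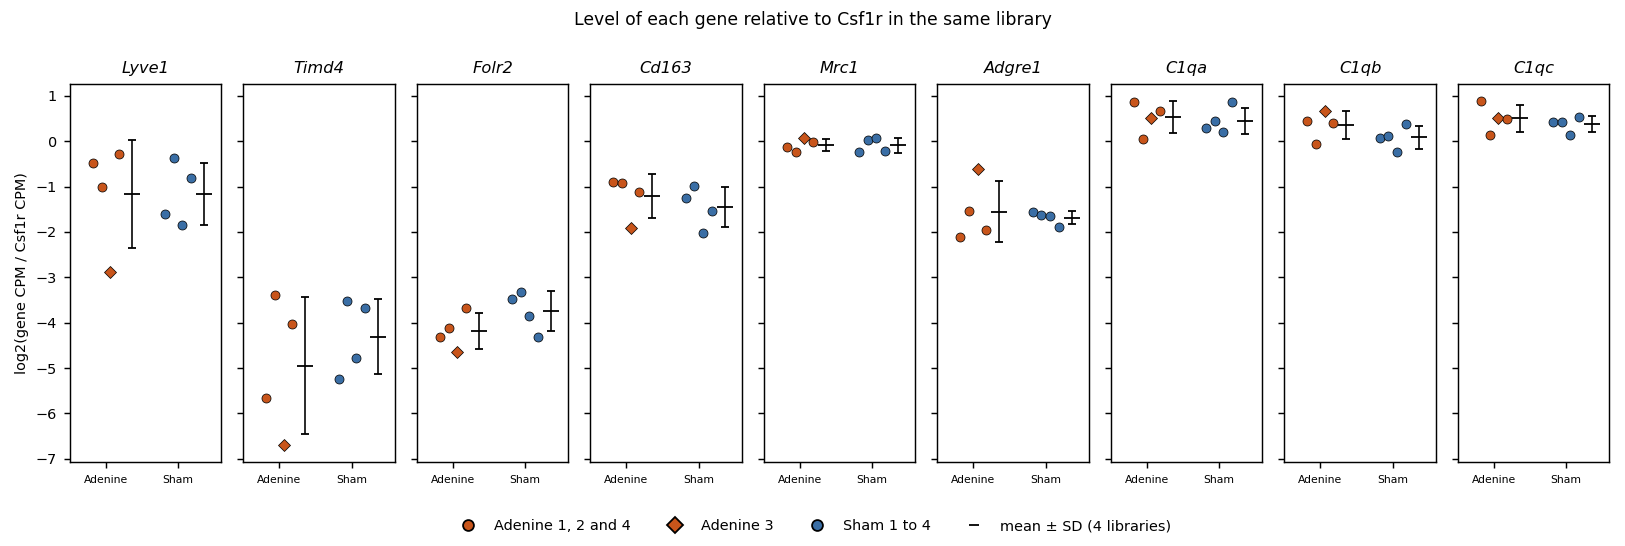
Log2 ratio of the CPM of 9 genes to the CPM of Csf1r in the same library, 1 point per library, with the mean and SD of each group. Adenine 3, the diamond, is the lowest of the 8 libraries for Lyve1, Timd4 and Folr2 and the highest for Adgre1 and C1qb, while Mrc1 stays within -0.25 to 0.07 in all 8.

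Other genes of the same cells were read from lists chosen with earlier results of these data known. Among 15 further genes known from resident macrophages, edgeR called 0, with a median log2 fold change of -0.39, 11 of them below 0, and DESeq2 called 3 lower, where it called 0.797% of all genes lower. These 3 were Ccl24, a chemokine gene, Cbr2, a carbonyl reductase gene, and Fcna, which encodes ficolin A. Ccl24 was at 1.80, 2.26, 1.40 and 2.32 CPM in Adenine 1 to 4, against 4.58, 4.91, 3.80 and 3.82 CPM in Sham 1 to 4. Its groups did not overlap, and Adenine 3 was the lowest library. Cbr2 was at 19.9, 12.8, 20.3 and 21.8 CPM in Adenine 1 to 4, against 47.9, 41.3, 24.8 and 30.8 CPM in Sham 1 to 4, again with no overlap. Log2 fold changes were -1.14 (SE 0.26) for Ccl24 and -0.95 (SE 0.22) for Cbr2, with an adjusted p of 0.142 for both in edgeR and of 0.00247 and 0.0273 in DESeq2. Without Adenine 3 the log2 fold change was -1.02 for Ccl24 and -0.998 for Cbr2 (edgeR). Fcna was at 3.03 to 4.16 CPM in the Adenine and 3.87 to 9.28 CPM in the Sham libraries, which overlapped (log2 fold change -0.98, adjusted p = 0.199 in edgeR and 0.0479 in DESeq2). Without Adenine 3 its log2 fold change was -1.05 (edgeR), and the median of the 15 was -0.60.

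Gas6, which encodes a ligand that bridges dying cells to the receptor MERTK, had no overlap either, with 67.1 to 103 CPM in the Adenine and 110 to 174 CPM in the Sham libraries, and a log2 fold change of -0.60 (adjusted p = 0.228, edgeR), or -0.67 without Adenine 3. Thus 3 of the 15 genes lay lower without overlap, where 3.84% of all genes did. F13a1, which encodes a subunit of coagulation factor XIII, and Pf4, a chemokine gene, were highest in Adenine 3, with 106 CPM and 39.3 CPM. Their log2 fold changes were -0.11 for F13a1 and 0.12 for Pf4 (edgeR), and -0.73 and -0.60 without Adenine 3. Without Adenine 3, DESeq2 called 7 of the 15 lower, where it called 3.63% of all genes lower. The 7 were Ccl24, Cbr2, Fcna, F13a1, Pf4, Gas6 and Vsig4. Markers of other cells stood as follows beside these genes. The sum of 5 fibroblast markers (Pdgfra, Dpt, Tcf21, Col1a1 and Dcn) was 1043 CPM in Adenine 3, 543 to 791 CPM in Adenine 1, 2 and 4, and 904 to 1437 CPM in the Sham libraries. All but Col1a1, thus 4 of the 5, were lower in every Adenine library than in any Sham library. Col1a1 was at 433 CPM in Adenine 3, 45.7 to 101 CPM in Adenine 1, 2 and 4, and 86.7 to 163 CPM in the Sham libraries. Its log2 fold change was 0.54, and -0.58 without Adenine 3 (edgeR). DESeq2 called 2 of these 5 lower, Dpt and Tcf21, where it called 0.797% of all genes lower. Without Adenine 3 it called 4 lower, where it called 3.63% of all genes lower. Vascular endothelial markers (Pecam1, Cdh5, Kdr, Tek and Tie1) summed to 356 CPM in Adenine 3, 382 to 499 CPM in Adenine 1, 2 and 4, and 472 to 632 CPM in the Sham libraries. Of these 5, DESeq2 called 1, Tek, lower with and without Adenine 3, beside the same shares of all genes. The part of either in the values of the resident-type genes was not tested.

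Of 19 general macrophage and myeloid genes, edgeR called 0, and all 19 had their highest level in Adenine 3, as had 6 of the 10 macrophage genes and 13.8% of all genes tested. Their median log2 fold change was 1.03 with Adenine 3 and -0.09 without it. Ctss, which encodes the lysosomal protease cathepsin S, was at 34.5, 28.6, 324 and 14.7 CPM in Adenine 1 to 4, against 22.6, 16.1, 13.9 and 15.2 CPM in Sham 1 to 4. Mpeg1, which encodes the pore protein perforin-2, was at 24.8, 20.2, 206 and 10.1 CPM in Adenine 1 to 4, against 18.5, 7.28, 10.9 and 9.63 CPM in Sham 1 to 4. Both were by far highest in Adenine 3, were above the Sham range in Adenine 1 and 2 too, and were below the Sham maximum in Adenine 4. Ctss had a log2 fold change of 2.57 (adjusted p = 0.218, edgeR), and 0.60 without Adenine 3 (adjusted p = 0.125, edgeR). Mpeg1 had one of 2.50 (adjusted p = 0.222, edgeR), and 0.65 without Adenine 3 (adjusted p = 0.159, edgeR). Among 9 genes of recruited monocytes edgeR called 0 and DESeq2 called 0 of the 7 with an adjusted p, which do not include Ccr2 and Chil3. Their median log2 fold change was 0.41, and 0.30 without Adenine 3. The sum of the 9 was 199.6 CPM in Adenine 3, 105 to 129 CPM in Adenine 1, 2 and 4, and 109 to 128 CPM in the Sham libraries. Most of the Sham sum was Ace, at 48.4 to 57.1 CPM, and Vcan, at 21.9 to 34.5 CPM, so it says little of the rest. Ccr2, the chemokine receptor of recruited monocytes, reached 50.4 CPM in Adenine 3. Adenine 1, 2 and 4 held 4.22 to 8.07 CPM of it and the Sham libraries 3.96 to 6.83 CPM (log2 fold change 1.70, adjusted p = 0.263, edgeR, and 0.10 without Adenine 3). Chil3, a chitinase-like gene, reached 16.8 CPM in Adenine 3, while Adenine 1, 2 and 4 held 1.76 to 2.08 CPM and the Sham libraries 0.542 to 1.34 CPM (log2 fold change 2.50, adjusted p = 0.214, edgeR, and 0.88 without Adenine 3).

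Of 10 genes of lipid-handling macrophages edgeR called 1, Mmp12, the macrophage elastase, which rose with a log2 fold change of 5.17 (SE 0.69, adjusted p = 0.0182). The call was lost in limma-voom (adjusted p = 0.181, and 0.0514 without Adenine 3) and in edgeR without Adenine 1 (0.0852), Sham 1 (0.0629), Sham 2 (0.0713), Sham 3 (0.101) or Sham 4 (0.0957). The log2 fold change was 3.89 to 5.58 over every setting tried. DESeq2 called 5 of 8 higher, where it called 0.629% of all genes higher. Without Adenine 3, edgeR called 6 of these 10 higher (Spp1, Gpnmb, Lgals3, Mmp12, Itgax and Atp6v0d2), where it called 0.178% of all genes higher. The same 6 genes had all 4 Adenine libraries above all 4 Sham libraries, as had 3.45% of all genes. The rest of the list was not called. Without Adenine 3 the log2 fold changes were -0.30 for Trem2, -0.41 for Cd9, -0.46 for Fabp5 and 0.24 for Lpl (edgeR). Trem2 was at 55.7 CPM in Adenine 3, 5.65 to 9.60 CPM in Adenine 1, 2 and 4, and 5.76 to 13.1 CPM in the Sham libraries. Mmp12 was at 55.3, 52.2, 160 and 7.70 CPM in Adenine 1 to 4, against 1.71, 1.46, 2.35 and 2.14 CPM in Sham 1 to 4. In Adenine 1, 2 and 4 its level was thus above the Sham range while Mrc1 and Csf1r were below theirs.

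**Figure D4:**
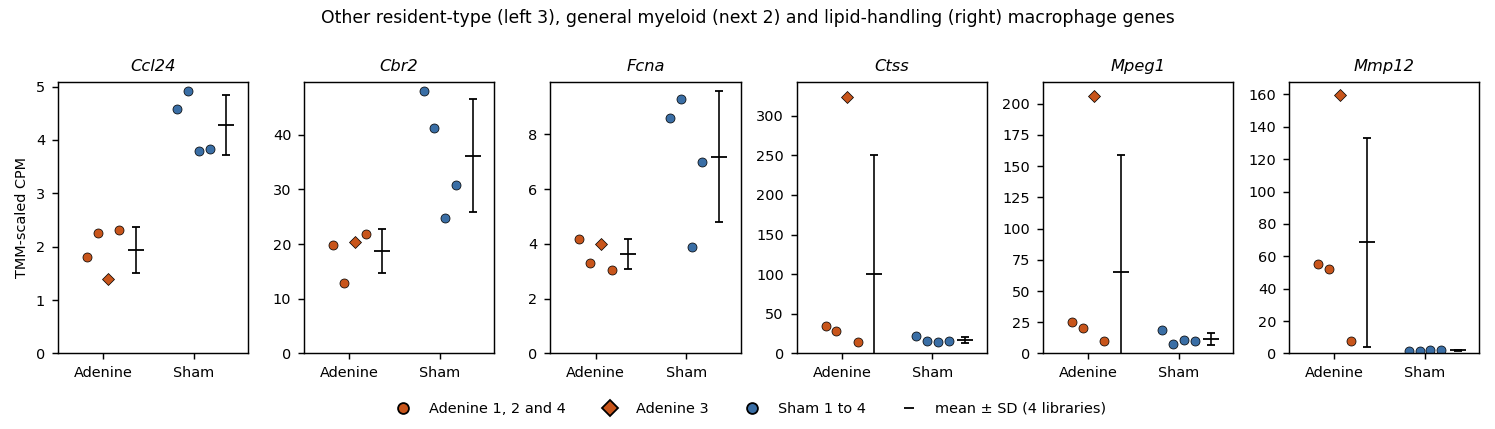
TMM-scaled CPM of 3 further resident-type genes (Ccl24, Cbr2, Fcna), 2 general myeloid genes (Ctss, Mpeg1) and Mmp12 in 4 Adenine and 4 Sham libraries, 1 point per library, with the mean and SD of each group; bars that run past 0 are cut there. Ccl24 and Cbr2 are lower in all 4 Adenine libraries than in any Sham library, Ctss and Mpeg1 are highest in Adenine 3, the diamond, and Mmp12 is higher in all 4 Adenine libraries.

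Among 13 ligands and partners of these receptors and of C1q, edgeR called 0. DESeq2 called 1 of the 11 with an adjusted p lower, where it called 0.797% of all genes lower. This was Has3, a hyaluronan synthase gene, at 1.16 to 1.94 CPM in the Adenine and 2.51 to 3.99 CPM in the Sham libraries (log2 fold change -1.08, adjusted p = 0.186 in edgeR and 0.0135 in DESeq2, and -1.04 without Adenine 3 in edgeR). Csf1, the main ligand of CSF1R, was at 33.7, 25.6, 38.8 and 34.3 CPM in Adenine 1 to 4, against 40.4, 43.6, 35.8 and 40.6 CPM in Sham 1 to 4 (log2 fold change -0.27, adjusted p = 0.329, edgeR, and -0.37 without Adenine 3). Il34, the other ligand, was at 4.34 to 5.57 CPM in the Adenine and 2.30 to 4.84 CPM in the Sham libraries (log2 fold change 0.28, adjusted p = 0.505, edgeR, and 0.31 without Adenine 3). Neither was outside its Sham range in Adenine 3. C1s1, which encodes a protease found in a complex with C1q, was at 26.2, 13.8, 17.0 and 27.9 CPM in Adenine 1 to 4, against 46.7, 38.6, 28.8 and 22.0 CPM in Sham 1 to 4 (log2 fold change -0.68, adjusted p = 0.263, edgeR, and -0.59 without Adenine 3). C1s1 was thus not high in Adenine 3, where the C1q chains were.

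Profiles over the 8 libraries were also compared among the 10668 genes whose mean reached 5 CPM, by the root mean square difference of centred log2 CPM relative to the SD of the anchor gene. The 5 closest to C1qb were Unc93b1 (0.223), Laptm5 (0.231), Lgmn (0.235), Col5a1 (0.236) and Gatm (0.238). C1qc came at rank 6 and C1qa at rank 10, Csf1r at 64 and Mrc1 at 81, whereas Lyve1 came at rank 9988. Closest to Folr2 were Selenop (0.393), Cdr2 (0.427), Fcrls (0.430), Col18a1 (0.442) and Sema3c (0.452). Folr2 itself was under the limit of 5 CPM, with means of 2.27 CPM in Adenine and 3.64 CPM in Sham hearts. Csf1r came at rank 457 of that order, Mrc1 at 711, Cd163 at 1686 and C1qc at 3462. C1qa came at 5360, C1qb at 6990, Adgre1 at 8840 and Lyve1 at 9482. All points share the same 8 libraries and their depth, and no test was made.

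Some cardiomyocyte transcripts were low in Adenine 3. Summed over Myh6, Tnnt2, Actc1, Ryr2 and Myl2, they were at 23809 CPM in Adenine 3, at 35686 to 42664 CPM in Adenine 1, 2 and 4 and at 36028 to 46486 CPM in the Sham libraries, so the defining transcripts of heart muscle were abundant in all 8. Myh6, the main cardiac myosin heavy chain of the adult mouse, was at 7094 CPM in Adenine 3, 15834 to 18343 CPM in Adenine 1, 2 and 4, and 15483 to 20491 CPM in the Sham libraries. Myl2, a myosin light chain gene, was at 3629 CPM in Adenine 3, 6749 to 7308 CPM in Adenine 1, 2 and 4, and 6187 to 7077 CPM in the Sham libraries. Actc1 (3392 CPM) and Ryr2 (769 CPM) were also under their Sham minima of 4740 and 789 CPM, whereas Tnnt2, at 8925 CPM in Adenine 3, was inside its Sham range of 8328 to 10864 CPM. edgeR and DESeq2 called 0 of these 5. The 19 myeloid genes summed to 3447 CPM in Adenine 3, 322 to 512 CPM in Adenine 1, 2 and 4 and 368 to 592 CPM in the Sham libraries. The part of tissue make-up in the values of that library was not tested.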

How the data were processed

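Bulk RNA sequencing gave 4 Adenine and 4 Sham heart libraries. The authors deposited raw read counts per gene, whole numbers not scaled between libraries. Quality control with FastQC 0.11.9, the aligner STAR 2.7.6a and the build GRCm38.p6 are named per the submitters' processing notes. No source used here gives the counting program, annotation, strand setting or filters. Groups and replicate numbers come from the sample titles.

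The counts entered edgeR 4.0.16 (R 4.3.3): default low-count filter by group, TMM factors, quasi-likelihood F-test of the diet, SE from the F statistic, Benjamini-Hochberg adjustment over all genes tested, called at an adjusted p under 0.05. CPM and RPKM were computed from the counts with the TMM factors, RPKM with exon lengths of GENCODE M21 (GRCm38; 27225 of 27304 identifiers matched). Profiles used log2 CPM with a prior count of 2. DESeq2 1.42.0 and limma-voom (limma 3.58.1) were alternatives, beside other scalings, filters, each library left out and the replicate number as a block. DESeq2 and limma-voom without Adenine 3 were added after seeing the data. The fits were tested on simulated counts. The chi-square per gene between replicates of a group was 20.0 to 96.8, and no library was a duplicate of another in its group. Pairs across the groups were not compared this way.

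The members and lists were chosen with earlier results of these data known. All 10 members are named; of each other list, genes called by edgeR or otherwise the 2 with the lowest p. Fcna, Gas6, Vsig4, F13a1, Pf4, Csf1, Il34 and Col1a1 were chosen after their values were seen. So were Trem2, Cd9, Fabp5, Lpl, Ace, Vcan, Prox1, Reln, Zbtb46 and Clec9a. Totals of 15626620 to 33886385 counts make values near 1 CPM imprecise.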

Additional observations from a re-analysis of the deposited data

Results flagged for a closer look

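In 4 of 20 groups examined, the 10 genes in each diet, 1 library lay far from the other 3 (Dixon's test of the gap to the nearest library over the group's range). Chance flags about 5% of groups, and the 4 genes share the same library, Adenine 3. Mrc1 was at 90.2 CPM there, with 29.6 CPM as the next highest Adenine library. Adgre1 was at 56.0 CPM, with 11.3 CPM next. Csf1r was at 86.1 CPM, with 32.8 CPM next. C1qb was at 137 CPM, with 44.0 CPM next.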

How the results depend on the processing

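Under the alternatives tried, 0 of the 10 genes were called higher in any, and 0 lower except in DESeq2 without Adenine 3, which called 4. Genes called over the whole table, 8 higher and 0 lower, were 18 and 1 with upper-quartile factors, 120 and 152 in DESeq2, 5 and 0 in limma-voom, 8 and 1 with no filter, 21 and 10 at an adjusted p under 0.1, 911 and 696 in DESeq2 without Adenine 3, 18 and 14 in limma-voom without it, and 1 to 37 higher and 0 to 30 lower with 1 library left out. In the 107 genes of the other lists, 1 higher and 0 lower, the counts were 6 and 11 in DESeq2, 8 and 16 in DESeq2 without Adenine 3, 3 and 0 in limma-voom without it, and 0 to 6 and 0 with 1 library left out. Taking the replicate number as a block gave 16 genes higher and 16 lower, and 5 list genes higher. Deviations of same-numbered libraries had correlations of -0.50 to 0.30, against -0.49 to 0.54 for libraries of unlike number. The labels do not say what the numbers mean, and these correlations cannot settle whether they mark a shared batch.

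The median log2 fold change of the 10 genes was -0.45 to 0.23 with 1 library left out. Signs turned for 8 of the 10 genes, most from values near 0, but also for Adgre1 (0.51 in the main analysis) and C1qb (0.36), both when Adenine 3 was left out and Adgre1 with the block; the cause was not tested. Cd163 was at 0.15 with upper-quartile factors, 0.00152 without mitochondrial transcripts, 0.0888 in limma-voom, 0.0768 with the filter of 1 CPM in 4 libraries and 0.0801 with the replicate block. Csf1r was at 0.0941 with upper-quartile factors, 0.0152 with no filter and 0.0482 with the filter of 1 CPM. In limma-voom and with the replicate block, Mrc1 was at -0.14 and -0.15, C1qa at -0.0863 and -0.10, and C1qc at -0.0343 and -0.0548; Adgre1 was at -0.0627 with the block. Without Adenine 3, DESeq2 and limma-voom gave -0.71 and -0.56 for Mrc1, -0.90 and -0.77 for Adgre1, -0.55 and -0.45 for C1qa, -0.50 and -0.35 for C1qb, and -0.52 and -0.41 for C1qc, and limma-voom gave 0.0473 for Lyve1. With 1 library left out, values ran from -0.43 to 0.0501 for Lyve1, -0.18 to 0.30 for Cd163, -0.60 to 0.26 for Mrc1, -0.78 to 0.84 for Adgre1, -0.58 to 0.22 for Csf1r, -0.45 to 0.28 for C1qa, -0.40 to 0.59 for C1qb and -0.43 to 0.36 for C1qc. Timd4 and Folr2 stayed below 0 under every alternative. Upper-quartile factors moved the median of all genes by 0.15. Timd4 and Folr2 were at a few CPM, with 16 to 106 reads of Timd4 and 31 to 187 reads of Folr2 per library. The part of depth in their spread was not tested.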

Other observations

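Of the marker lists for cells other than macrophages, edgeR called 0 genes in each, with and without Adenine 3. DESeq2, which called 0.797% of all genes lower and 0.629% higher, called genes in the fibroblast (Dpt and Tcf21), vascular endothelial (Tek), lymphatic endothelial (Ccl21a), mast cell and dendritic cell lists. Mast cell genes had a median log2 fold change of -1.44, and -1.27 without Adenine 3. The chymase gene Cma1 was at 0.541 to 1.22 CPM in the Adenine and 0.931 to 4.34 CPM in the Sham libraries (adjusted p = 0.216 in edgeR and 0.014 in DESeq2). Mcpt4, a mast cell protease gene, was at 0.955 to 1.96 CPM in the Adenine and 1.79 to 8.06 CPM in the Sham libraries (adjusted p = 0.226 in edgeR and 0.0273 in DESeq2). The groups overlapped for both, and DESeq2 called 3 of the 5 mast cell genes lower, or 2 without Adenine 3, where it called 3.63% of all genes lower.

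In the dendritic cell list DESeq2 called 1 of 4 genes higher, Flt3, the receptor of a growth factor of these cells, at 3.12 to 8.50 CPM in the Adenine and 1.15 to 2.83 CPM in the Sham libraries. Xcr1, a chemokine receptor gene of the same list, had a log2 fold change of 0.67 (adjusted p = 0.334, edgeR), and 0.80 without Adenine 3. Zbtb46 was at -0.13 and Clec9a at 0.22, or 0.000787 and 0.18 without Adenine 3 (edgeR), and Cd209a was not tested. The median of the 4 genes tested was 0.45, and 0.49 without Adenine 3. Without Adenine 3 the log2 fold change of Flt3 was 1.55, against 1.40 with it, and DESeq2 called Flt3 and the B cell gene Ms4a1 higher. With all libraries, medians were 0.86 for neutrophil genes (Csf3r 0.86, Mmp8 1.26) and 0.45 for lymphocyte genes (Ms4a1 1.04, Cd3e 0.83). They were -0.69 for fibroblast genes (Dpt -1.21, Tcf21 -1.03), -0.47 for vascular endothelial genes (Tek -0.58, Cdh5 -0.53), -0.30 for lymphatic endothelial genes and -0.12 for cardiomyocyte genes (Actc1 -0.46, Myh6 -0.27). Without Adenine 3 the medians were 0.96 for neutrophil, 0.65 for lymphocyte, -0.69 for fibroblast, -0.45 for vascular endothelial, -0.38 for lymphatic endothelial and -0.0507 for cardiomyocyte genes.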
